A study of Homo sapiens with 6 samples.

Results

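The genes described here are 10 regulators of the G1 phase of the cell cycle in HaCaT keratinocytes: the D cyclins CCND1, CCND2 and CCND3, the kinases CDK2, CDK4 and CDK6, the inhibitors CDKN1A, CDKN1B and CDKN2B, and the retinoblastoma gene RB1. They were taken by symbol from a table of 12829 genes, which held all 10. HaCaT is an immortalised, aneuploid human keratinocyte line, labelled as skin, and was grown in DMEM with serum. The study compared 3 libraries of normal control cells (genotype labelled WT) with 3 libraries in which IQGAP2, which makes an actin- and calmodulin-binding scaffold, was knocked down by a hairpin (shIQGAP2). Proliferation and mTOR signalling are the subject given in the title of the series, so the comparison addresses which G1 regulators differ after the knockdown. Whether the control carried a hairpin, how many hairpins were used and whether the knockdown cells were a clone are not stated in the labels. The labels call the libraries biological replicates without naming separate cultures, so the p-values rest on a spread between libraries that may be only technical.

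D cyclins bind CDK4 or CDK6 in response to growth signals, and the complexes phosphorylate the retinoblastoma protein. Phosphorylation releases E2F transcription factors, which switch on cyclin E and the genes of DNA replication, and CDK2 with cyclin E completes the step into S phase. The INK4 protein p15, made by CDKN2B, blocks CDK4 and CDK6, while p21 and p27, made by CDKN1A and CDKN1B, block CDK2 complexes and also help D cyclins and their kinases to assemble. In keratinocytes p21 and p15 are known as genes of growth arrest, p15 as a target of TGF-beta.

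RefSeq (GRCh38.p14) gave a promoter window for 7 of the 10 genes, all but CCND1, CCND2 and CDK2. The windows of CDK6 and CDKN2B, whose transcripts both rose, reach the first base of the gene in GENCODE 29, and the part before that base is shown here for these 2 genes. Capitals mark GC boxes (GGGCGG, either strand, the letters bound by the SP1 family) and, in CDKN2B only, the TEAD letters GGAATG on the opposite strand.
CDK6, chr7:92836595-92836823, minus strand: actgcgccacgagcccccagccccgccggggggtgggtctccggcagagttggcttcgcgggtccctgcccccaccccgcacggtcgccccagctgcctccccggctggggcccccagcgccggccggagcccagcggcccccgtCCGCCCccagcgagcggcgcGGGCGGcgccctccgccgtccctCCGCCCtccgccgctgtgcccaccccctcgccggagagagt
CDKN2B, chr9:22009364-22009555, minus strand: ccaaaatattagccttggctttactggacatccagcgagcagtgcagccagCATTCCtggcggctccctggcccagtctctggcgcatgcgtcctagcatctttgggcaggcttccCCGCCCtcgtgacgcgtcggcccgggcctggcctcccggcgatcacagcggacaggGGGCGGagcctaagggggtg
The CDK6 window held 3 GC boxes and the CDKN2B window 2.

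Over the 250 bases before the RefSeq start, a GC box was present in 6 of the 7 windows, against 42.3% of all 27305 RefSeq promoters and 66.9% of the 10310 that belong to genes of the table. RB1 was the exception, and its RefSeq window lies far inside the gene as GENCODE 29 draws it, so it is not the window of the most upstream start. Those of CCND3, CDK4, CDKN1A and CDKN1B also lie downstream of the most upstream GENCODE start. The E-box CACGTG, which MYC and its relatives bind, occurred in 1 window, that of CDK4, with 3 matches. It occurred in 6.49% of all promoters and 8.8% of those of genes of the table. The TEAD letters occurred in 1 window, that of CDKN2B, against 11.9% of all promoters and 9.46% of those of genes of the table. None of the 7 held the E2F letters TTTCCCGC or TTTGGCGC (1.96% of all promoters and 3.06% of those of genes of the table). None held the AP-1 letters TGACTCA (4.16% and 2.79%) or TATAAA (11.1% and 5.9%). Each was searched on both strands. GC-box matches may overlap each other, and a match is only a run of letters.

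Recovered reads summed to 12901037 to 15360759 per library. All 8 keratinocyte markers examined were present, with KRT5, KRT14 and TP63 among them, and their summed level was 5980 to 6060 FPKM in control cells and 6020 to 6640 FPKM in knockdown cells. Within that sum KRT5, TP63, KRT6A and COL17A1 were higher and CDH3 lower at a limma adjusted p under 0.05, while KRT14, ITGB4 and SFN did not pass. Of 5 immune markers only CD74 was listed (5.43 to 6.26 FPKM in control, 1.17 to 1.5 FPKM in knockdown libraries), while PTPRC, CD3E, LST1 and TYROBP have no row in the table used here. Of 6 fibroblast markers COL1A1, DCN and LUM were listed and summed to 3.46 to 3.79 FPKM in control cells and 1.56 to 1.91 FPKM in knockdown cells. LUM went from 2.21 to 0.268 FPKM and DCN from 0.207 to 0.0426 FPKM, while COL1A1 was at 1.24 and 1.44 FPKM. Of the melanocyte markers PMEL and MITF were listed, at 1.2 to 1.28 and 0.855 to 1.04 FPKM in sum, and of the endothelial markers VWF and CDH5, at 0.269 to 0.401 and 0.424 to 0.484 FPKM. VWF went from 0.142 to 0.423 FPKM and CDH5 from 0.179 to 0.0359 FPKM, in opposite directions. The part of these low marker levels in the changes below was not tested. The targeted gene IQGAP2 had 24, 22 and 21 reads in control replicates 1, 2 and 3 and 2, 4 and 2 in knockdown replicates 1, 2 and 3, or 0.196 ± 0.00547 against 0.0235 ± 0.00808 FPKM (SD, n = 3). This was a fall of 88% in FPKM, with no overlap of the groups, in a gene of few reads even in control cells. The change in log2(FPKM + 1) was -0.22 (limma adjusted p = 0.0217), and at so low a level the added 1 keeps it small. Without control replicate 1, 2 or 3, or without knockdown replicate 3, the adjusted p was 0.0519 to 0.0556.

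CCND1, CDK6, CDKN1A, CDKN2B and RB1 rose in the knockdown, by 33.8% to 69.0% in FPKM. CDK4 and CCND3 fell, by much less, and both falls depended on how libraries were scaled. CCND2, CDK2 and CDKN1B did not pass the test. In all, 7 of the 10 genes passed, against 57.4% of all 11214 tested: 5 were higher, against 29.5% of all genes, and 2 lower, against 27.8%. The groups did not overlap for the same 7 genes, 5 with the knockdown higher (33.7% of all genes) and 2 with it lower (31.4%), together against 65.1% of all genes, and the median log2 change of the 10 was 0.23, against 0.01 over all genes. In an exact two-sided permutation test each of these 7 genes gave p = 0.1, the smallest that 3 against 3 libraries allow. With each library rescaled to a common sum of FPKM, 7 of the 10 were higher and 0 lower, and over all genes 4864 were higher and 1838 lower, in place of 3313 and 3121. A log2 change is the mean of log2(FPKM + 1) in knockdown libraries less that in control libraries, and the added 1 makes it too small for genes of low level. In bulk RNA a change in the mix of cells, such as the share in each cell cycle phase, and a change of RNA per cell cannot be told apart.

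**Figure D1:**
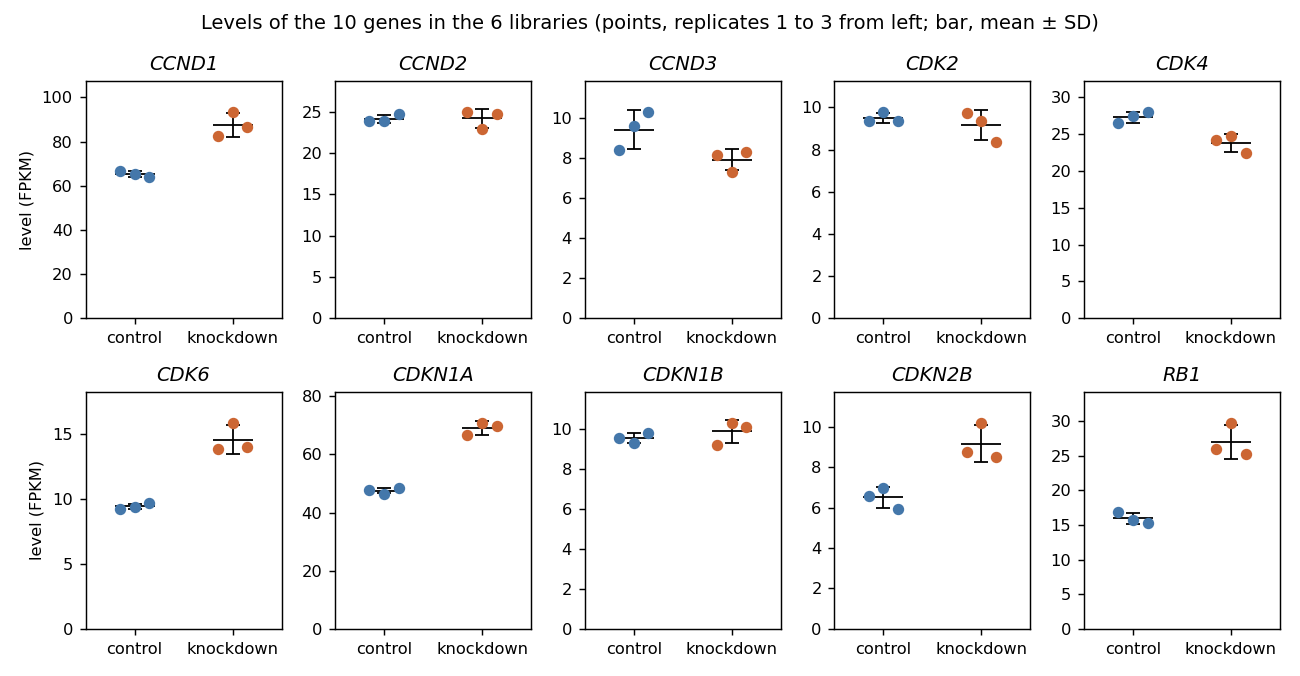
Level in FPKM (vertical axes, from 0) of the 10 genes in the 3 control and 3 knockdown libraries, as points with the group mean ± SD. CCND1, CDK6, CDKN1A, CDKN2B and RB1 lie higher in all 3 knockdown libraries, CCND3 and CDK4 lower, and CCND2, CDK2 and CDKN1B overlap.

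Among the D cyclins, CCND1 was the most abundant of the 10 genes in both groups. It encodes the cyclin that growth factor signalling induces in most epithelia. CCND1 (ENSG00000110092, GRCh38 chromosome 11, 69641087 to 69654474, plus strand) was at 66.8, 65.2 and 64 FPKM in control replicates 1 to 3 and at 82.4, 93.4 and 86.5 FPKM in knockdown replicates 1 to 3. The lowest knockdown library lay well above the highest control library. The level was 1.34 times the control level, with a log2 change of 0.41 (SE 0.053, adjusted p = 1.18e-04). LTO1, on the opposite strand, shares 10.3% of the exonic bases of CCND1 and was itself higher (5.16 and 6.4 FPKM in control and knockdown). Reads in the shared bases cannot be told apart where counting ignores strand. CDK2 likewise shares 14.5% of its exonic bases with AC025162.1 on the opposite strand, and CCND2 shares 13.8% with AC008012.1 on its own strand.

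CCND2, a D cyclin that is high in many stem and progenitor cells, was at 23.9, 23.9 and 24.7 FPKM in the 3 control libraries and 25, 22.9 and 24.8 FPKM in the 3 knockdown libraries. The groups overlapped. The log2 change of CCND2 (ENSG00000118971, chromosome 12, 4273772 to 4305350, plus strand) was 0.00, with a 95% interval of -0.11 to 0.11 (adjusted p = 0.966). Rescaling each library to a common sum of FPKM, which moved the median of all genes from 0.01 to 0.14, put CCND2 past the threshold as higher (0.16, adjusted p = 0.0138). That value is close to the shifted median itself.

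CCND3, the D cyclin best known from lymphoid cells and from differentiating tissue, was at 8.39, 9.58 and 10.3 FPKM in the 3 control libraries and 8.15, 7.31 and 8.28 FPKM in the 3 knockdown libraries. Control replicate 1 was only just above the highest knockdown library. The fall of CCND3 (ENSG00000112576, chromosome 6, 41934933 to 42050357, minus strand) was -0.22 (SE 0.079, adjusted p = 0.0324). The call was lost without control replicate 2 (adjusted p = 0.0909), control replicate 3 (0.14) or knockdown replicate 2 (0.074), and with a common sum (-0.08, adjusted p = 0.416).

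FPKM divides by gene length, so the D cyclins can be set beside each other where the lengths used are right. CCND1 made up 67.4%, 66.1% and 64.6% of the summed D cyclin FPKM in control replicates 1 to 3 and 71.3%, 75.6% and 72.3% in knockdown replicates 1 to 3. The share of CCND2 went from 24.4% ± 0.436 to 20.3% ± 1.62 and that of CCND3 from 9.53% ± 0.992 to 6.63% ± 0.623 (SD, n = 3). The D cyclin sum was 99 ± 0.205 FPKM in the 3 control libraries and 120 ± 4.01 FPKM in the 3 knockdown libraries. Multiplying a whole library by a constant leaves these shares as they are. The share of CCND1 was higher in every knockdown library than in any control library.

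CDK6, a kinase partner of the D cyclins, rose in the knockdown. CDK6 (ENSG00000105810, chromosome 7, 92604921 to 92836594, minus strand) was at 9.26, 9.41 and 9.68 FPKM in control and 13.9, 15.9 and 14 FPKM after the knockdown. Control values lay close together, and all 3 knockdown values well above them. CDK6 rose 1.55 times, with a log2 change of 0.58 (SE 0.063, adjusted p = 4.44e-05). It is the longest of the 10 genes, with 12.26 kb of exons, and with the trend of change over gene length removed its log2 change was 0.44 (adjusted p = 5.99e-05).

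CDK4, the closely related kinase that shares its D cyclin partners, was at 26.5, 27.4 and 28 FPKM in the 3 control libraries and 24.2, 24.7 and 22.4 FPKM in the 3 knockdown libraries. Every knockdown library was lower than every control library, by a small margin. The log2 change of CDK4 (ENSG00000135446, chromosome 12, 57747727 to 57756013, minus strand) was -0.19 (SE 0.052, adjusted p = 0.00956). It was -0.03 with a common sum (adjusted p = 0.669) and -0.08 with the length trend removed (adjusted p = 0.253), so the call was lost in both. TSPAN31, on the opposite strand, shares 43.2% of the exonic bases of CDK4 and was higher in the knockdown, at 4.91 against 3.95 FPKM.

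Of the summed FPKM of both kinases, CDK6 held 25.9%, 25.6% and 25.7% in control replicates 1 to 3 and 36.5%, 39.2% and 38.5% in knockdown replicates 1 to 3. The balance therefore lay closer to equal in every knockdown library, with CDK4 still the more abundant. These shares are not free of the trend of change over gene length, which was 0.15 at the length of CDK6 and -0.1 at that of CDK4. With the trend removed, the log2 changes were 0.44 for CDK6 and -0.08 for CDK4, and the shares were not recomputed. Their sum was 36.7 ± 0.96 FPKM in the 3 control libraries and 38.4 ± 2.16 FPKM in the 3 knockdown libraries, a difference smaller than the SD of the knockdown libraries.

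CDK2, the kinase of cyclins E and A, was at 9.37, 9.78 and 9.34 FPKM in the 3 control libraries and 9.74, 9.36 and 8.35 FPKM in the 3 knockdown libraries. The groups overlapped, and only knockdown replicate 3 stood low. For CDK2 (ENSG00000123374, chromosome 12, 55966769 to 55972784, plus strand) the log2 change was -0.05, with a 95% interval of -0.20 to 0.09 (adjusted p = 0.523), and the sign changed with the scaling (0.10 with a common sum).

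**Figure D2:**
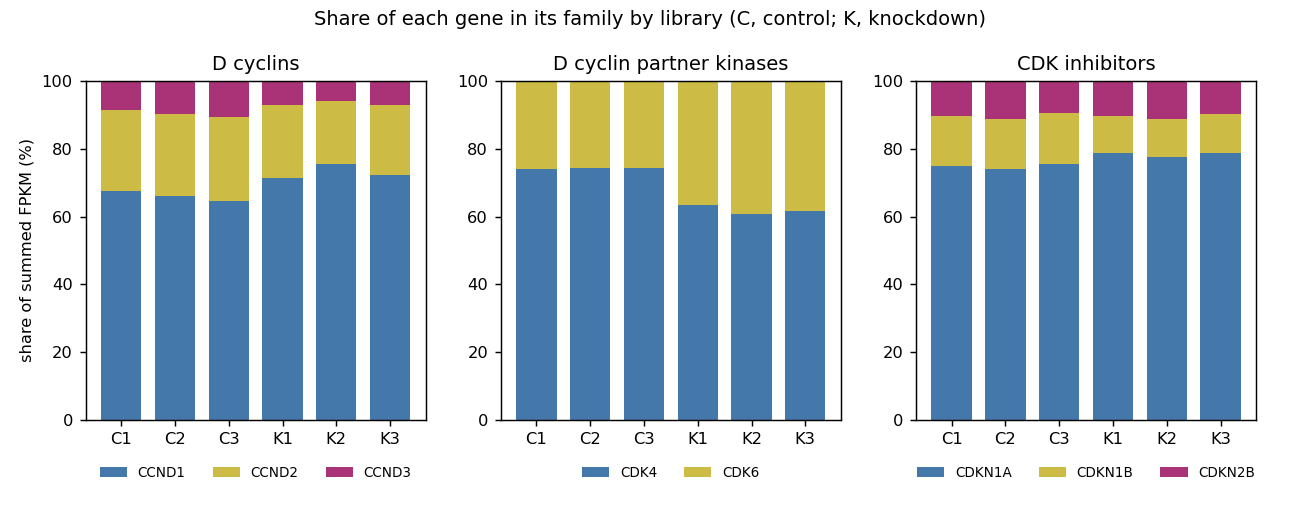
Share (%) of each gene in the summed FPKM of the D cyclins, of CDK4 and CDK6, and of the 3 inhibitors, by library. The share of CDK6 is 25.6% to 25.9% in control and 36.5% to 39.2% in knockdown libraries, and that of CCND1 also lies higher in all knockdown libraries.

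Of the 3 inhibitors, CDKN1A and CDKN2B rose and CDKN1B did not pass. CDKN1A, the p21 gene, was at 47.8, 46.5 and 48.4 FPKM in the 3 control libraries and 66.5, 70.9 and 69.7 FPKM in the 3 knockdown libraries. Levels were tight within each group and far apart between them. CDKN1A (ENSG00000124762, chromosome 6, 36676460 to 36687339, plus strand) rose 1.45 times, with a log2 change of 0.53 (SE 0.045) and an adjusted p of 9.63e-06, the lowest of the 10 genes.

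CDKN2B (ENSG00000147883, chromosome 9, 22002903 to 22009363, minus strand) had the lowest mean of the 10 genes in control libraries. It was at 6.59, 6.99 and 5.93 FPKM in the 3 control libraries and 8.77, 10.2 and 8.51 FPKM in the 3 knockdown libraries, from 334 to 629 recovered reads. All knockdown libraries were higher than all controls, with wider spread than for CDKN1A. The level rose 1.41 times (log2 change 0.43, SE 0.08, adjusted p = 0.00111).

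CDKN1B, the p27 gene, whose protein is controlled largely by degradation, was at 9.53, 9.28 and 9.76 FPKM in the 3 control libraries and 9.19, 10.3 and 10.1 FPKM in the 3 knockdown libraries. The groups overlapped. The log2 change of CDKN1B (ENSG00000111276, chromosome 12, 12715058 to 12722371, plus strand) was 0.05, with a 95% interval of -0.09 to 0.18 (adjusted p = 0.539). It passed as higher with a common sum (0.20, adjusted p = 0.0325), where the median of all genes was 0.14, and was at -0.06 with the length trend removed.

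Of the summed FPKM of the 3 inhibitors, CDKN1A held 74.8% ± 0.709 in control and 78.4% ± 0.689 in knockdown libraries, CDKN1B 15% ± 0.232 and 11.2% ± 0.306, and CDKN2B 10.2% ± 0.939 and 10.4% ± 0.743 (SD, n = 3). The CDKN1B share was lower in every knockdown library than in any control library, while that of CDKN2B overlapped between groups. The level of CDKN1B relative to other genes depends on its length: its FPKM values imply 9.33 kb, whereas its exons in GENCODE 29 cover 2.81 kb. CCND2 stood at 8.05 kb against 7.16 kb, and for the other 8 genes both lengths were nearly equal, such as 4.8 and 4.83 kb for CCND1. The implied length exceeds even the whole span of CDKN1B in GENCODE 29, so some counted reads may lie outside its exons there. With all reads kept and divided by the GENCODE lengths, the CDKN1B share would be 37.1% ± 0.426 in control and 29.7% ± 0.644 in knockdown libraries. Both shares are too high if such reads exist. This share was again lower in every knockdown library.

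RB1, the target of these kinases and the brake on E2F, had the largest change of the 10 genes. It was at 16.9, 15.8 and 15.3 FPKM in the 3 control libraries and 26, 29.8 and 25.3 FPKM in the 3 knockdown libraries. No knockdown library came near the control range. RB1 (ENSG00000139687, chromosome 13, 48303726 to 48599436, plus strand) rose 1.69 times, with a log2 change of 0.72 (SE 0.067, adjusted p = 1.77e-05). In the order of levels it moved from below CDK4 to above it. It also passed CCND2 as deposited. With all reads divided by the GENCODE lengths, RB1 and CCND2 were nearly equal in the knockdown (27.2 ± 2.43 FPKM for RB1 and 27.3 ± 1.33 FPKM for CCND2).

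In control libraries the order by mean level was CCND1, CDKN1A, CDK4, CCND2, RB1, CDKN1B, CDK2, CDK6, CCND3 and CDKN2B. The 4 genes CDKN1B, CDK2, CDK6 and CCND3 lay between 9.43 and 9.52 FPKM as deposited and did not differ beyond their spread. The place of CDKN1B rests on its implied length. With all its reads divided by the GENCODE length it would be at up to 31.6 ± 0.807 FPKM, the third of the 10 genes and above CDK4. In the same way CCND2 would be at up to 27.2 ± 0.501 FPKM, beside CDK4 at 26.9 ± 0.742 FPKM. Any reads outside the GENCODE exons would lower the values of CDKN1B and CCND2. In knockdown libraries CDK6 stood above CDK2 and CCND3 at 14.6 ± 1.16 FPKM. CDK4 (23.8 ± 1.23 FPKM) and CCND2 (24.2 ± 1.18 FPKM) could not be separated there as deposited.

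Knockdown replicate 2 was the highest of the 3 knockdown libraries for all 5 genes that rose, by 0.06 (CDKN1A) to 0.21 (CDKN2B and RB1) on the log2 scale above the mean of replicates 1 and 3. It was the lowest for CCND2 and CCND3. Without this library the 5 rises all passed, with log2 changes of 0.36 for CCND1 and CDKN2B, 0.51 for CDKN1A, 0.52 for CDK6 and 0.65 for RB1.

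**Figure D3:**
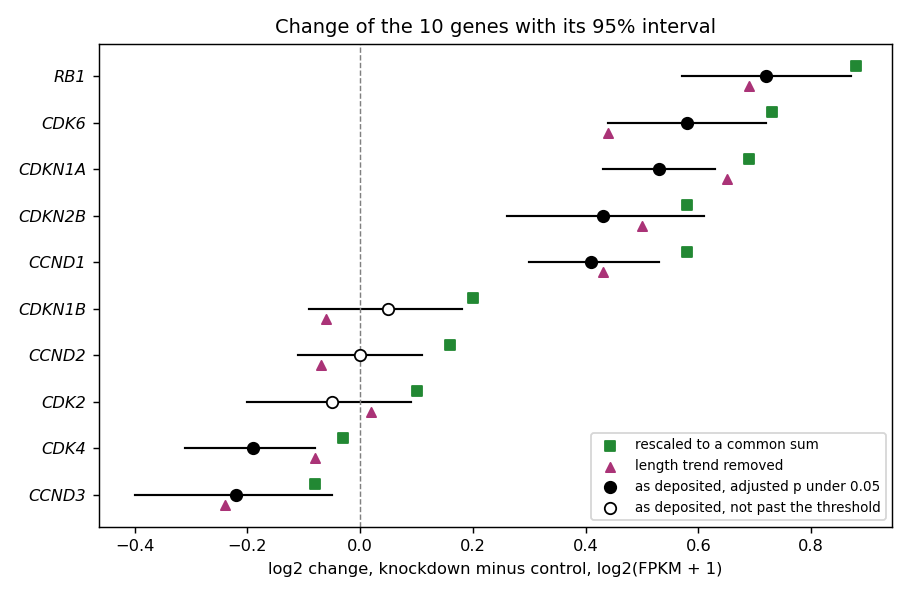
Log2 change (horizontal axis, knockdown minus control) of each gene as deposited, with its 95% interval from limma (circles, filled where the adjusted p is under 0.05), and the change with a common sum of FPKM (squares) or with the length trend removed (triangles). The 5 rises stay right of 0 in all 3, while CDK4 and CCND3 come to -0.03 and -0.08 with a common sum.

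Change over all genes moved with gene length, from a median of -0.19 in the shortest decile of genes (median length 1.58 kb) to 0.17 in the longest (13.9 kb). The trend at the length of CDK6 was 0.15, at that of CDKN1A -0.10 and at that of RB1 0.05. With it removed, CDKN1A stood at 0.65, CDKN2B at 0.50, CCND1 at 0.43 and RB1 at 0.69, and the same 5 genes were called higher. The part of the trend in each gene's change was not tested otherwise.

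**Figure D4:**
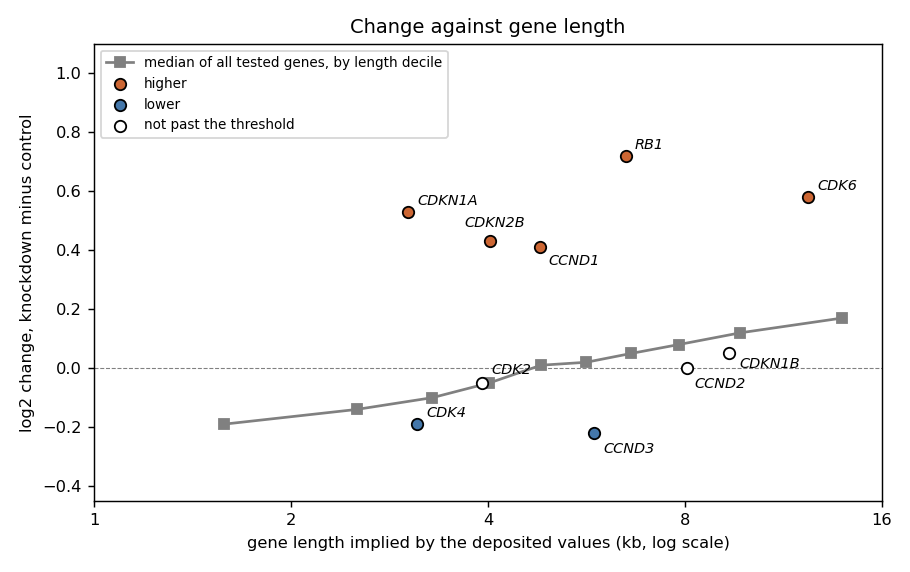
Log2 change (vertical axis) of the 10 genes against the gene length implied by the deposited values (kb, log scale), with the median of all tested genes in 10 bins of length (grey squares). The 5 genes that rose lie above the grey line and CDK4 and CCND3 lie below it.

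For the pattern over the 6 libraries in centred log2(FPKM + 1), the genes nearest to CCND1 were CAPRIN1 (Euclidean distance 0.011), ABCC4 (0.037) and PIP5K1A (0.038). CAPRIN1, an RNA-binding protein of stress granules, was at 34.8 ± 0.665 and 46.9 ± 3.18 FPKM in control and knockdown libraries. Nearest to CDKN1A were RCC2 (0.026), KPNA4 (0.044) and C1orf116 (0.047). RCC2, a chromosome and cytoskeleton regulator, was at 79.6 ± 1.08 and 115 ± 3.87 FPKM. These 6 genes were picked for likeness among all tested genes, so their rises are a description.

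The wider RB pathway went both ways. Of 31 listed genes (cyclins E and A, the CDK-activating kinase, other inhibitors, RB relatives, E2F factors and their partners), 29 were tested, and CDKN1C and LIN37 lay below the filter. Of the 29, 10 were higher and 5 lower, against 29.5% and 27.8% of all genes, with a median log2 change of 0.03. Without control replicate 1 or control replicate 3 the count of higher genes was 6, and without knockdown replicate 2 that of lower genes was 8. Over all genes 2872 and 2779 were higher without these control replicates, in place of 3313. Without knockdown replicate 2, 3212 of all genes were lower, in place of 3121. The largest rises were those of E2F7, a repressive E2F, from 3.37 ± 0.43 to 6.51 ± 0.862 FPKM (log2 change 0.78, adjusted p = 1.17e-04), and RBL1, the p107 relative of RB1, from 6.4 ± 0.48 to 10.7 ± 0.858 FPKM (0.66, adjusted p = 5.40e-05).

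CDKN2A, which encodes the INK4 protein p16 and the unrelated protein ARF, had the largest fall of this list. It was at 6.69, 6.56 and 6.13 FPKM in the 3 control libraries and 4.42, 3.24 and 4.12 FPKM in the 3 knockdown libraries, the opposite direction to its neighbour CDKN2B (log2 change -0.61, SE 0.092, adjusted p = 3.48e-04). The table does not separate its products. CDC37, the co-chaperone that delivers CDK4 and CDK6 to HSP90, fell from 62.8 ± 1.35 to 43 ± 4.07 FPKM (-0.54, adjusted p = 7.91e-05). CDKN2C, the gene of the INK4 protein p18, fell from 3.41 ± 0.134 to 2.07 ± 0.441 FPKM (-0.53, adjusted p = 0.00119). CCNE1 was at 3.54 ± 0.286 and 2.97 ± 0.33 FPKM (-0.20, adjusted p = 0.0675) and E2F1 at 21.8 ± 1.23 and 19.5 ± 2.34 FPKM (-0.16, adjusted p = 0.116), and neither passed. CCNE1 did pass as lower with quantile normalization (adjusted p = 0.0306) and without knockdown replicate 1 (0.0363). It was at -0.05 with the length trend removed (adjusted p = 0.651) and at -0.07 with a common sum (0.524). E2F1 was at -0.02 with the length trend removed (adjusted p = 0.77) and at 0.00 with a common sum (0.989).

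Genes known as E2F targets were more often lower than higher: of 25 tested, 12 fell and 3 rose, against 27.8% and 29.5% of all genes, with a median of -0.16 against 0.01. With a common sum 9 were lower and 4 higher, where 1838 of all 11214 genes were lower and 4864 higher. When a library was left out, 10 to 18 were lower and 2 to 3 higher. The count of 18 came without knockdown replicate 2, where 3212 of all genes were lower. The largest falls were those of CDT1, which loads the replicative helicase at origins, from 44.2 ± 1.69 to 22.4 ± 1.6 FPKM (log2 change -0.95, adjusted p = 1.35e-06), and MYBL2, a transcription factor of the cell cycle, from 83.9 ± 1.42 to 55.3 ± 4.08 FPKM (-0.60, adjusted p = 1.87e-05). The largest rises were those of CCNE2, a cyclin E, from 1.07 ± 0.288 to 1.82 ± 0.0668 FPKM (0.45, adjusted p = 0.00398), and CDC6, the partner of CDT1 in origin licensing, from 13.2 ± 0.523 to 18 ± 1.31 FPKM (0.42, adjusted p = 3.07e-04). The list shares 5 genes with the RB pathway list.

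Regulators known to act on the 10 genes or their proteins (transcription factors, TGF-beta receptors and SMADs, and ubiquitin ligases) went both ways: 10 of 30 tested were higher and 10 lower, against 29.5% and 27.8% of all genes, with a median of 0.03 against 0.01. Both counts lie near the shares of all genes. With a common sum 15 were higher and 7 lower, where 4864 of all 11214 genes were higher and 1838 lower. KLF4, a known activator of CDKN1A and a factor of epidermal differentiation, rose from 27.2 ± 0.721 to 47.3 ± 2.63 FPKM (0.78, adjusted p = 2.22e-06). TGFBR1, the type I TGF-beta receptor, rose from 6.16 ± 0.312 to 11.3 ± 0.683 FPKM (0.78, adjusted p = 8.33e-06). The rest of its branch, named here after the values were seen, went different ways. SMAD2 was higher (0.26, adjusted p = 0.00758) and SMAD3 lower (-0.37, adjusted p = 8.15e-05). The trend of change over gene length was 0.22 at the length of SMAD2, close to its change, and 0.13 at that of SMAD3. TGFBR2 (0.12, adjusted p = 0.15) and SMAD4 (0.09, adjusted p = 0.26) did not pass. JUN, an AP-1 factor that acts on the CCND1 promoter, fell from 148 ± 3.5 to 91.7 ± 2.44 FPKM (-0.68, adjusted p = 1.73e-06). The levels of these regulators are transcript levels, and their part in the changes of the 10 genes was not tested.

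**Figure D5:**
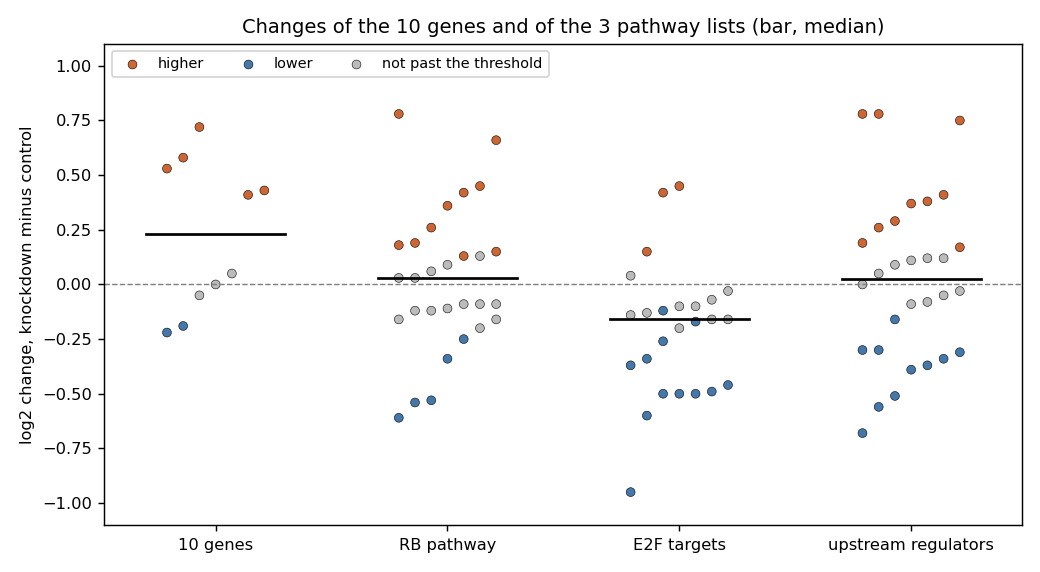
Log2 change (vertical axis) of each tested gene among the 10 G1 genes and in the RB pathway, E2F target and upstream regulator lists (points, coloured by direction where the adjusted p is under 0.05), with the median of each as a bar. The medians are 0.23, 0.03, -0.16 and 0.03.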

How the data were processed

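RNA-seq was measured in 6 libraries of HaCaT cells, 3 control and 3 knockdown, grouped by the sample labels. The authors deposited 1 table of FPKM values, with a column per library and no pooling of replicates. Reads were aligned with HISAT2 2.2.1 to GRCh38, as far as the submitters' processing notes name tools and builds. The counter, annotation, gene lengths and strand setting are not given in those notes. Because FPKM is scaled to each library's total, a fall of abundant transcripts lifts all others.

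The contrast was fitted with limma (version 3.58.1, R version 4.3.3) to log2(FPKM + 1), with group as the factor and variances moderated along a trend over mean level. Of 12829 genes, the 11214 whose mean was 0.5 FPKM or more were tested. P-values are two-sided and adjusted over all tested genes by the Benjamini-Hochberg method, and 0.05 is the threshold. IQGAP2 fell short of the filter and was added to a fit of its own. A single gene's exact permutation test over 3 against 3 libraries cannot go below p = 0.1.

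Whole reads were recovered from the steps of the FPKM values for all 12829 genes, within 0.004 reads. A divisor common to all 6 values of a gene cannot be seen. These reads gave depth, a relative gene length and an alternative test. The recovery and the limma fit were tested on simulated data, and the other steps were not. In the simulation the reads of 98% of 1000 genes were recovered exactly.

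The 10 genes, the 3 pathway lists and the tests were chosen with earlier results of these data known. The rule for names took all 10 genes and IQGAP2. From each list it took the 2 largest rises and 2 largest falls past the threshold. It also took CCNE1, E2F1, CDKN2A and CDKN2C, and the 3 genes nearest in pattern to CCND1 and to CDKN1A. The result of 1 further named gene is not reported here. Alternatives were pseudocounts of 0.1 and 0.5, no filter, a minimum mean of 5 FPKM, a common sum of FPKM, quantile normalization, removal of the trend over gene length by loess (span 0.3), limma-voom with TMM scaling on recovered reads, a replicate block, and leaving out each library.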

Additional observations from a re-analysis of the deposited data

How the results depend on the processing

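CCND1, CDK6, CDKN1A, CDKN2B and RB1 kept their direction and their side of the threshold in all 15 alternative fits, with log2 changes of 0.36 to 0.58, 0.44 to 0.73, 0.51 to 0.69, 0.36 to 0.58 and 0.65 to 0.88. The count of lower genes among the 10 was 0 with a common sum and 1 with the length trend removed, against 2, and 1 to 2 when a library was left out. The count of higher genes was 7 with a common sum. CCND3 lost its call in 4 alternatives and CDK4 in 2. CCND2 changed sign in 6 (-0.07 with the length trend removed, -0.01 with limma-voom, and -0.02 to 0.04 when a library was left out). CDK2 did so in 3 (0.10 with a common sum, 0.02 with the length trend removed, -0.09 to 0.01 when a library was left out). CDKN1B did so in 1 (-0.06 with the length trend removed, at its implied length). CCNH did so in 1 (0.04 with a common sum) and CDKN2D in 1 (-0.01 without knockdown replicate 3, with values up to 0.09 when another library was left out). In the RB pathway list, leaving out a library gave 6 to 10 higher and 5 to 8 lower genes, and requiring at least 5 FPKM gave 3 lower, with fewer genes tested. Over all genes 3313 were higher and 3121 lower, and 4864 and 1838 with a common sum. When a library was left out, 2779 to 3250 of all genes were higher and 2678 to 3212 lower. The replicate block changed no call among the 10 genes (5 higher, 2 lower). Libraries with the same number did not deviate together: the correlations of their deviations were -0.10, -0.06 and 0.06. With the GENCODE 29 exon length in place of the implied length, an alternative chosen after seeing the data, the level of CDKN1B moved from 9.52 to 31.6 FPKM in control and from 9.87 to 32.7 FPKM in knockdown libraries. All reads of CDKN1B were kept there, so 31.6 and 32.7 FPKM are upper limits. Beyond what is stated, the cause of these shifts was not tested.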

Other observations

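The genes in this section were chosen after their values were seen. Among the RB family of pocket proteins, RBL2, the p130 gene of quiescent cells, was at 6.31, 6 and 5.74 FPKM in control and 6.76, 9.02 and 6.62 FPKM in knockdown libraries (log2 change 0.26, limma adjusted p = 0.0466). Its call rested on several libraries and was lost in 7 of 15 alternatives, for example without knockdown replicate 2 (0.13, adjusted p = 0.0817) or without control replicate 3 (0.23, adjusted p = 0.135). RB1 and RBL1 passed in all 15. Of the INK4 inhibitors, CDKN2B rose, CDKN2A and CDKN2C fell, and CDKN2D was at 11.8 ± 0.353 and 12.1 ± 0.929 FPKM (log2 change 0.03, adjusted p = 0.694). The CDKN2D value passed as higher with a common sum (0.18, adjusted p = 0.0216) and with the length trend removed (0.25, adjusted p = 0.00179).

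The CDK-activating kinase, which phosphorylates the kinases of the cell cycle, has 3 subunits. The kinase CDK7 was higher, at 55.4 ± 0.436 against 48.6 ± 2.65 FPKM (log2 change 0.19, adjusted p = 0.00845), as was the assembly factor MNAT1, at 10.8 ± 0.57 against 8.2 ± 0.825 FPKM (0.36, adjusted p = 0.00216), while CCNH was at 7.26 ± 0.3 and 6.67 ± 0.0861 FPKM (-0.11, adjusted p = 0.144). SKP2 and CKS1B, which together direct the degradation of p27, fell from 5 ± 0.116 to 3.86 ± 0.157 FPKM (-0.31, adjusted p = 0.00232) and from 77 ± 2.25 to 60.8 ± 2.99 FPKM (-0.34, adjusted p = 2.83e-04). The SKP2 call was lost with a common sum (-0.17, adjusted p = 0.0756). MYC, known as a regulator of both CCND2 and CDK4, reached 125 ± 6.76 FPKM against 73.9 ± 1.88 FPKM in the controls (0.75, adjusted p = 2.36e-06). Its part in the levels of CCND2 and CDK4 was not tested.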
